A study of Mus musculus with 20 samples.

Results

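The cytochrome P450 genes of the mouse kidney were followed through ischemia and reperfusion injury (IRI), ischemic pre-conditioning (IPC) and Hemin treatment. Every gene name of the array annotation made of Cyp, a family number and, where present, a subfamily letter and a gene number was taken, detected or not. This gave 78 gene names on 113 probes, out of 27827 gene names and 41174 non-control probes. The names Cyp3a41a, Cyp4a12a, Cyp4a12b and Cyp4f41-ps carry a further letter or suffix and were not among them. Whole-kidney RNA of male C57BL/6 mice aged 8 to 12 weeks was hybridized to single-color Agilent oligonucleotide arrays, in 5 groups of 4 arrays. Control mice had neither ischemia nor drug. IRI mice had 45 min of bilateral renal ischemia and 6 h of reperfusion. IRI+Hemin mice received Hemin, an iron porphyrin that induces heme oxygenase-1, at 25 mg/kg by intraperitoneal injection 24 h before the same ischemia. IPC+IRI mice had 15 min of ischemia 7 days before the same ischemia. Hemin mice received the drug at the same dose without ischemia. No sham operation is described for Control or Hemin mice, so ischemia cannot be told apart from anesthesia and incision in the comparisons with Control. In IPC+IRI vs IRI, the earlier 15 min of ischemia cannot be told apart from the anesthesia and operation that came with it. The labels number the arrays but do not say that each came from a different mouse, so p-values measure the spread between these arrays, which may be technical.

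P450 enzymes are heme proteins that insert 1 oxygen atom from molecular oxygen into their substrate, with electrons from P450 oxidoreductase in the endoplasmic reticulum or from adrenodoxin in mitochondria. Families named by low numbers handle mostly foreign compounds and fatty acids, and others make or break down steroids, bile acids, retinoic acid and vitamin D. In the kidney they are found mainly in the proximal tubule, where CYP2C and CYP2J enzymes epoxidize arachidonic acid, CYP4A enzymes hydroxylate its end, and Cyp27b1 makes the active form of vitamin D.

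Promoter windows are shown for a few genes to which the results return. Each covers 300 bases and ends 50 bases after the RefSeq start of the gene (GRCm38.p6), and is printed 5′ to 3′ on the strand of the gene. Cyp1a1 (chr9:57697363-57697662, plus strand) and Cyp1b1 (chr17:79715012-79715311, minus strand) are both targets of the aryl hydrocarbon receptor (AhR), and Cyp1a1 was called lower after IRI while Cyp1b1 was not called. The capitals mark GCGTG, the core of the element that AhR binds, searched on both strands. It begins 54 bases before the Cyp1a1 start and, on the opposite strand, 76 bases before the Cyp1b1 start.
Cyp1a1: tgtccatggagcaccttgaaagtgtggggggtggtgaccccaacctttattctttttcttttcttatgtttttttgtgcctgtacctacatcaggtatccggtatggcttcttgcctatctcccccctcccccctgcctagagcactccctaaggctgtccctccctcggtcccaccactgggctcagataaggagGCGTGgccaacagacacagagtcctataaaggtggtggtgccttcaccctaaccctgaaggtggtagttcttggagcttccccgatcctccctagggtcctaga
Cyp1b1: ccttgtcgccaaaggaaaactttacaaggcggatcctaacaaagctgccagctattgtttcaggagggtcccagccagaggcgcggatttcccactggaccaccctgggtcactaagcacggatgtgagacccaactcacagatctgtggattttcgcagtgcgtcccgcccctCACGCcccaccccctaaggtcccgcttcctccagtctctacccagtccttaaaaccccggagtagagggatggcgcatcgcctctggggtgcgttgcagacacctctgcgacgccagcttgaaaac
The core was present in 10639 of 32851 promoter windows (32.4%) and in 15 of the 59 P450 genes that had a window (25.4%). Cyp2a4 (chr7:26306942-26307241) and Cyp2a5 (chr7:26835089-26835388), both on the plus strand, are near copies whose windows were identical at 97.7% of aligned positions. Cyp2b9 (chr7:26173159-26173458) and Cyp2b13 (chr7:26061245-26061544), also on the plus strand, were identical at 99.3%, and Cyp2b9 and Cyp2b10 at 73.2%. In these windows the capitals mark AGGTCA or its reverse complement, the half-site that many nuclear receptors bind. The match lies at base 31 and base 30 after the start in Cyp2a4 and Cyp2a5, and 138 bases before it in Cyp2b9 and Cyp2b13.
Cyp2a4: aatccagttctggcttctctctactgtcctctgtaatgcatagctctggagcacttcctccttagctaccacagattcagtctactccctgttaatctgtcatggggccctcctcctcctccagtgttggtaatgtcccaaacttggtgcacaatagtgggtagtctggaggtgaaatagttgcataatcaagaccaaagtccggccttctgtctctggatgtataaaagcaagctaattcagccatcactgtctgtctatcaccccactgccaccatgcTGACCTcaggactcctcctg
Cyp2a5: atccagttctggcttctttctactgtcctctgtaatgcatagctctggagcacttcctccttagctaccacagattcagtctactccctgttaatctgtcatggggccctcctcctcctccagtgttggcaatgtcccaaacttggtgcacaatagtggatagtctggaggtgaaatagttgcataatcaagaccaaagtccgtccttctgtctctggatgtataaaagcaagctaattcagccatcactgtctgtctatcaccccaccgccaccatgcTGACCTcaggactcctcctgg
Cyp2b9: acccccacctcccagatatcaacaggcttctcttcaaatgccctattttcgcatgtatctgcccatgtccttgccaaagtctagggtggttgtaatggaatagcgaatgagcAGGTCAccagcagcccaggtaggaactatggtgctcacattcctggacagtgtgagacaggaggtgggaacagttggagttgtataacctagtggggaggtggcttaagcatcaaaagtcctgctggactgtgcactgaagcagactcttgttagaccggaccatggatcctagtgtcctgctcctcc
Cyp2b13: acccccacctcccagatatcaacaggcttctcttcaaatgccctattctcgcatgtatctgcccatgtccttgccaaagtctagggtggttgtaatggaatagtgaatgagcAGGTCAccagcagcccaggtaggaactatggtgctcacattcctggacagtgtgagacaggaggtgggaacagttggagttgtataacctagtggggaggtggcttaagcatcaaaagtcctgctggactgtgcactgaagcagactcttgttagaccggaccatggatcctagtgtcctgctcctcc
AGGTCA was present in 5340 of the 32851 windows (16.3%) and in 17 of the 59 P450 windows (28.8%). A match is a description of letters and not a binding site.

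Expression is given throughout as log2 of the processed signal over the 75th percentile of its array, so that 0 is the level of that percentile. Levels of different genes come from different probes and are not compared with each other. Of the 78 P450 genes, 43 were well above background on all 20 arrays, 21 on some and 14 on none. The 61 genes well above background on at least 3 of 4 arrays of at least 1 group were tested. The other 17 were Cyp11a1, Cyp11b2, Cyp19a1, Cyp1a2, Cyp2a12, Cyp2ab1, Cyp2b23, Cyp2c38, Cyp2c39, Cyp2c54, Cyp2d13, Cyp2g1, Cyp3a25, Cyp3a44, Cyp4a29, Cyp7a1 and Cyp8b1. Between 50 and 60 P450 genes were well above background on each array, and the 75th percentile lay between 146.7 and 357.9 intensity units. All 10 proximal tubule, 6 distal nephron and 4 podocyte markers were above background in every group. The summed proximal tubule level lay between 8.95 and 9.96 on all arrays. In whole tissue, fewer cells of a type and less RNA per cell cannot be told apart. The 5 groups were hybridized on separate slides, which therefore cannot be told apart from the groups. The slides of Control and IRI share scan day 1, that of IRI+Hemin belongs to day 2, and those of IPC+IRI and Hemin to day 3.

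Many P450 genes are clustered copies of each other (positions in mm9, from the array annotation). The 11 CYP2C genes lie at chr19:39116674-44079594, the 7 CYP2D genes at chr15:82201687-82620634, the 4 CYP2A genes at chr7:27098659-27821605 and the 5 CYP2B genes at chr7:26702056-27557469. The 4 CYP4A genes lie at chr4:114923306-115242883 and the 5 CYP2J genes at chr4:95711984-96296075. A probe can detect more than 1 copy: 17 probes of 11 P450 genes are annotated to several RefSeq genes. Those genes are Cyp2a4, Cyp2b9, Cyp2b13, Cyp2c37, Cyp2c40, Cyp2d9, Cyp2j13, Cyp3a11, Cyp3a25, Cyp4a10 and Cyp4f16, and their values are uncertain to that extent.

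Falls outnumbered rises among the P450 genes after IRI, with pre-conditioning and with Hemin alone, and rises outnumbered falls when Hemin preceded IRI. Calls were made where the adjusted p lay below 0.05 (limma, Benjamini-Hochberg adjustment over all genes tested in that comparison). In IRI vs Control, 8 of 57 P450 genes rose and 17 fell (14% and 29.8%), beside 17.1% and 33.9% of all genes tested. In IPC+IRI vs Control, 7 of 57 rose and 26 fell (12.3% and 45.6%), beside 23.2% and 32.8% of all genes. In IPC+IRI vs IRI, 5 of 53 rose and 14 fell (9.43% and 26.4%), beside 26.3% and 17.8% of all genes. In the deposited log2 values, part of them blank and scaled in the same way, 6 rose and 5 fell in IPC+IRI vs IRI. The excess of falls there thus depends on the processing. The share that fell was close to that of all genes after IRI alone, and higher than it in both comparisons of pre-conditioned kidneys. In IRI+Hemin vs IRI, 14 of 54 rose and 9 fell (25.9% and 16.7%), beside 26.3% and 18.1% of all genes. In Hemin vs Control, 4 of 58 rose and 18 fell (6.90% and 31.0%), beside 18.5% and 17.6% of all genes. The shares of rises and falls with Hemin before IRI were close to those of all genes, while the drug alone gave a larger share of falls. These shares are descriptions: they hold only genes that passed the filter, and none was tested against that of other genes. In the order just given, 8 of 25, 8 of 33, 3 of 19, 3 of 23 and 3 of 22 P450 calls were of genes that passed it through the higher of the groups compared alone, and could hardly be called the other way.

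**Figure D1:**
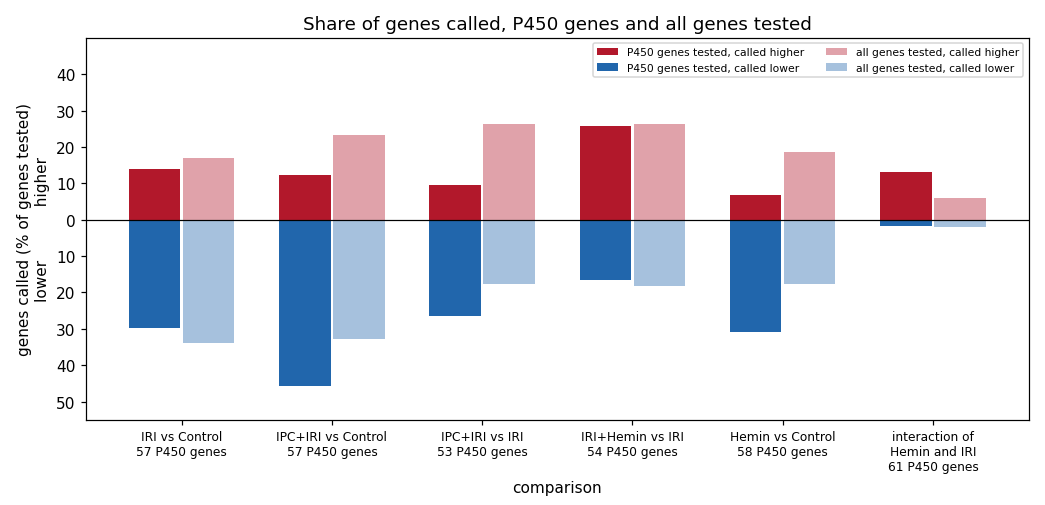
Percent of genes called higher (up) and lower (down) in the 5 comparisons and in the interaction of Hemin and IRI, for the tested P450 genes and for all genes tested. In IPC+IRI vs IRI 9.43% of P450 genes rose beside 26.3% of all genes, and in Hemin vs Control 31.0% fell beside 17.6%.

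In the order just given, the median log2 fold change of the P450 genes was -0.23, -0.42, -0.20, 0.20 and -0.22. The medians of all genes tested were -0.17, -0.09, 0.09, 0.08 and 0.06. Without scaling between arrays the medians of all genes became -0.05, 0.35, 0.41, 0.45 and 0.62, and the P450 counts moved with them. Unscaled, 10 P450 genes were higher and 12 lower in IPC+IRI vs Control, 7 and 3 in IPC+IRI vs IRI, 22 and 1 in IRI+Hemin vs IRI, and 12 and 3 in Hemin vs Control. With quantile normalization, 3 were higher and 17 lower in IPC+IRI vs IRI. All rises and falls below are relative to the 75th percentile of the array. A call said below to hold under every alternative held in each alternative processing that tested the gene. A 2-fold cutoff was applied to the counts alone. Dim genes were the most open to the background correction. Of the 74 calls whose brighter group had a mean below 0, 51 were not made after normexp correction with an offset of 50, which compresses differences between dim probes, against 15 of 48 calls at or above 0. The comparisons share arrays: Control enters 3 of them, and IRI enters 3.

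**Figure D2:**
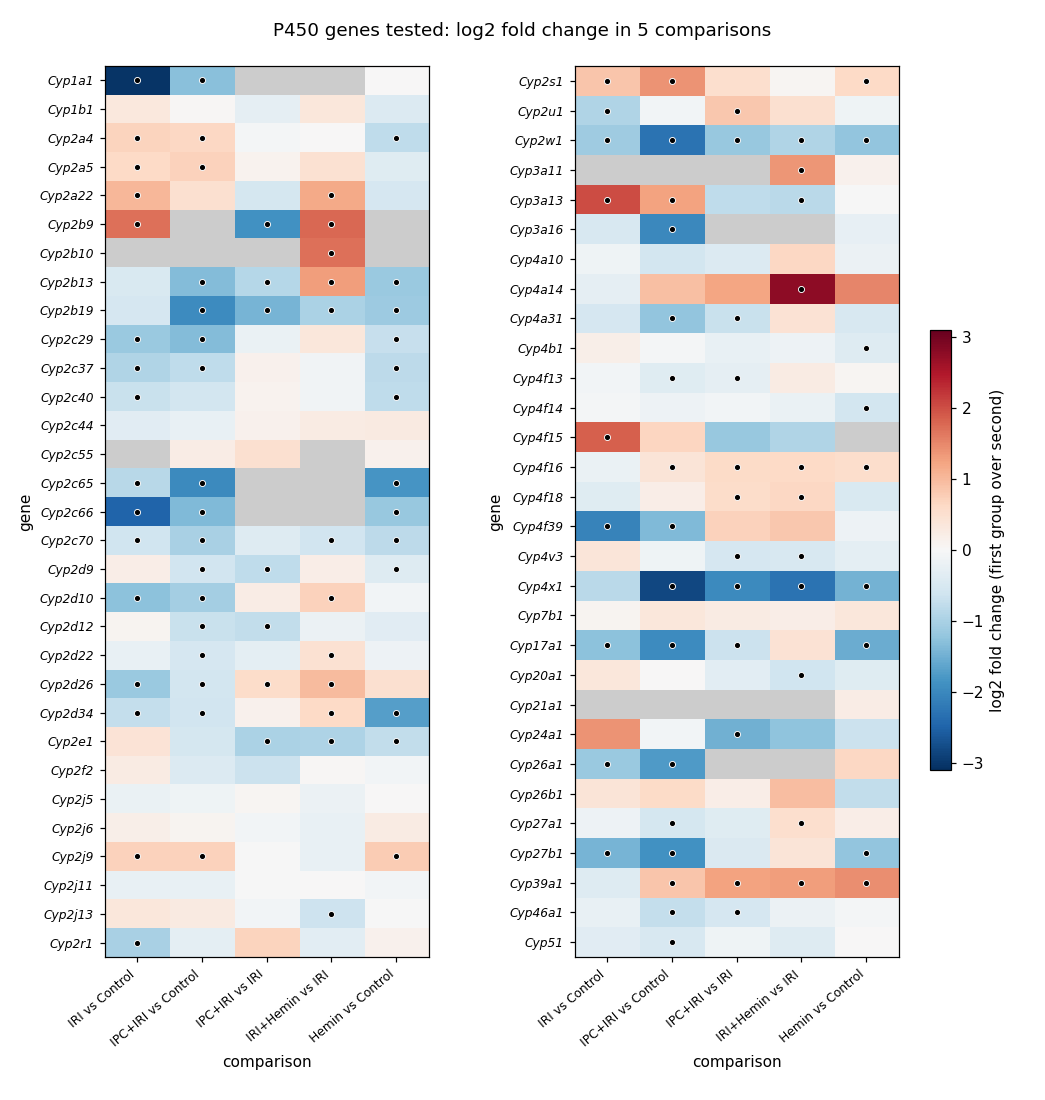
Log2 fold change of the 61 tested P450 genes (rows, by subfamily) in the 5 comparisons (columns), with a dot where the adjusted p was below 0.05 and grey where a gene was not tested. The CYP2C genes, 2 of which passed the filter through Control alone, hold falls and no rise in the 3 comparisons with Control, and the CYP2D genes hold 4 rises in IRI+Hemin vs IRI.

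Cyp1a1, which hydroxylates polycyclic hydrocarbons and is the classical target of AhR, was called lower after IRI, a comparison in which it passed the filter through Control alone. Its probe lies on the plus strand at chr9:57551535-57551594. Cyp1a1 measured -3.87, -3.00, -3.56 and -3.81 in Control and -6.08, -6.59, -6.46 and -7.21 in IRI. It was well above background on all 4 Control arrays and on no IRI array, and the groups did not overlap. Cyp1a1 fell at least 5.58-fold in IRI vs Control (log2 fold change -3.03 ± 0.38 (SE, n = 4 arrays per group), adjusted p = 5e-06), from a mean of -3.56 to one of -6.59. This bound sets each dim array at the lowest signal among its probes well above background, or at the value of the gene where that is higher. IRI+Hemin was also below background on all arrays, between -7.45 and -6.67, so Hemin before IRI could not be compared with IRI. In IPC+IRI the values were -4.29, -5.84, -5.53 and -3.75, with 2 of 4 arrays above background and 1 array above the lowest Control value. Cyp1a1 fell by 1.29 ± 0.38 in IPC+IRI vs Control (adjusted p = 0.0078). There too it passed the filter through Control alone and could hardly be called higher. Hemin alone measured -2.99, -3.91, -3.44 and -3.87, which overlapped Control (difference 0.01 ± 0.38, adjusted p = 0.99). Both Cyp1a1 falls kept their call without any 1 array and lost it after normexp correction, at -0.12 (adjusted p = 0.849) and -0.42 (adjusted p = 0.223). Cyp1b1, another AhR target, was not called in any comparison, with 0.32 ± 0.40 in IRI vs Control (adjusted p = 0.523). Its dimmer probe (chr17:80100918-80100977) was above background on no Control array and on all 4 IRI arrays, and differed by 2.96 where the brighter probe differed by 0.21. With probes averaged on the log2 scale, which gives the dimmer probe more weight, Cyp1b1 was called higher by 1.59 in IRI vs Control (adjusted p = 0.00117) and by 1.61 in IPC+IRI vs Control (adjusted p = 0.000882). Cyp1a2 was not above background.

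The AhR pathway genes gave other values. Tiparp, an AhR target that represses the receptor, rose by a log2 fold change of 1.66 ± 0.19 in IRI vs Control (adjusted p = 2.09e-06) and by 2.21 ± 0.19 in IPC+IRI vs Control (adjusted p = 1.1e-07). Ahr itself rose by 0.50 ± 0.16 in IRI vs Control (adjusted p = 0.0159). Arnt, its partner, differed by 0.22 in IRI vs Control (adjusted p = 0.215) and was 1.63-fold lower in IPC+IRI vs Control (adjusted p = 0.000518).

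**Figure D3:**
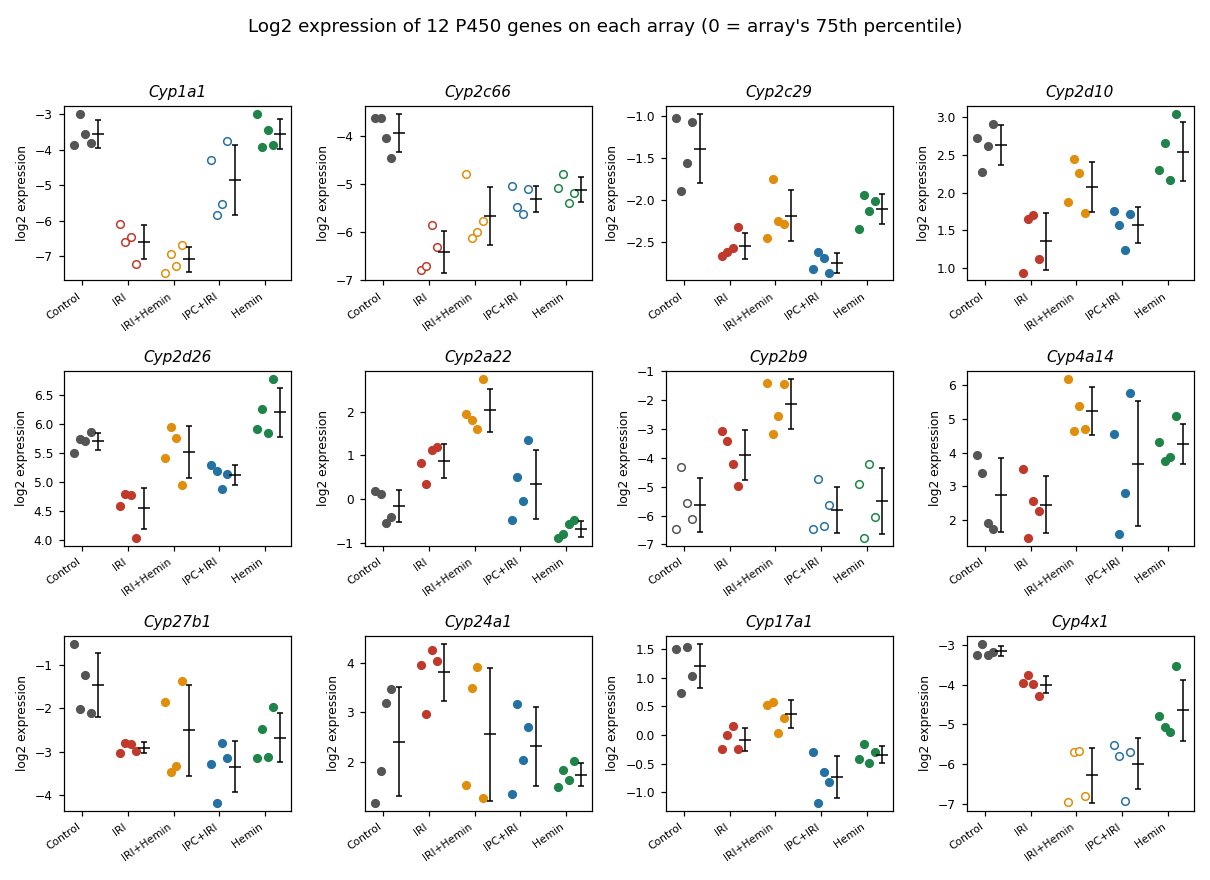
Log2 expression of 12 P450 genes on each of the 20 arrays, by group, with bars at the mean ± SD of 4 arrays. Filled points mark groups with at least 3 of 4 arrays well above background and open points the other groups. Cyp1a1 and Cyp2c66 dropped out of detection in IRI, Cyp4x1 in IRI+Hemin and IPC+IRI, and all 4 IRI+Hemin arrays lay above all IRI arrays in Cyp4a14 and Cyp2a22.

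The CYP2A and CYP2B genes, which hydroxylate steroids and drugs and include targets of the nuclear receptor CAR, held rises after IRI and with Hemin before IRI. Of 6 tested in IRI vs Control, 4 rose and none fell (median 0.65), beside 17.1% and 33.9% of all genes, and after normexp correction 1 rose. Cyp2b9, 1 of these 4, passed the filter there through IRI alone. Of 7 tested in IRI+Hemin vs IRI, 4 were called higher and 1 lower (median 1.17), beside 26.3% and 18.1% of all genes. Cyp2b10, 1 of these 4, passed the filter through IRI+Hemin alone and could only be higher there, and Cyp2b13 was carried by a shared probe. After normexp correction 2 rose and 1 fell in IRI+Hemin vs IRI (median 0.12). With Hemin alone, 3 of 5 fell and none rose (median -0.79), beside 17.6% and 18.5% of all genes. Cyp2b13, 1 of the 3, passed the filter there through Control alone, and none was called unscaled or after normexp correction. In IPC+IRI vs IRI, 3 of 6 fell and none rose (median -0.71), beside 17.8% and 26.3% of all genes, with Cyp2b9 again passing through IRI alone. In IPC+IRI vs Control 2 of 5 rose and 2 fell (median 0.50), beside 23.2% and 32.8%. With so few genes, of which some passed through 1 group, the counts are no support for a change of the group.

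Cyp2a22 measured 0.18, 0.12, -0.56 and -0.41 in Control, 0.83, 0.34, 1.12 and 1.20 in IRI and 1.95, 1.82, 1.62 and 2.75 in IRI+Hemin. The 3 groups did not overlap. Cyp2a22 rose by 1.04 ± 0.32 in IRI vs Control (adjusted p = 0.0124) and by a further 1.17 ± 0.32 in IRI+Hemin vs IRI (adjusted p = 0.00725), and both calls held without any 1 array and under every alternative. In Hemin it measured -0.89, -0.80, -0.57 and -0.49, lower than Control by 0.52 ± 0.32 (adjusted p = 0.22).

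Cyp2a4, a steroid 15α-hydroxylase, and Cyp2a5, the coumarin 7-hydroxylase, were called higher in the same comparisons, and all 3 probes of Cyp2a4 are annotated to both genes. Cyp2a5 measured 6.21, 6.15, 5.67 and 5.40 in Control, 6.59, 6.53, 6.75 and 6.00 in IRI and 6.62, 6.43, 6.44 and 6.85 in IPC+IRI. Cyp2a5 rose by 0.72 ± 0.24 in IPC+IRI vs Control (adjusted p = 0.0172), where the groups did not overlap, and by 0.61 ± 0.24 in IRI vs Control (adjusted p = 0.044), where they did. Without Control replicate 4 or IPC+IRI replicate 4 the first call was lost, and without Control replicate 3 or 4 or IRI replicate 1, 2 or 3 the second. The second was also lost after normexp correction, with quantile normalization, with the percentile of detected probes, with no filter and with the replicate block. Cyp2a4 rose by 0.69 ± 0.25 in IRI vs Control (adjusted p = 0.0299), with the same 5 arrays ending the call, as did normexp correction and its brightest probe alone. It rose by 0.63 ± 0.25 in IPC+IRI vs Control (adjusted p = 0.0417), a call kept only without Control replicate 1 or 2 and lost with quantile normalization, its brightest probe and the replicate block. Its Hemin arrays measured 5.68, 4.99, 5.79 and 4.45 beside 6.41, 6.17, 5.88 and 5.61 in Control. Cyp2a4 fell by 0.79 ± 0.25 in Hemin vs Control (adjusted p = 0.0219), and not without Control replicate 1 or Hemin replicate 2 or 4, unscaled, after normexp correction or in the deposited log2 values. Cyp2a5 differed by -0.38 in that comparison and was not called (adjusted p = 0.237).

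The CYP2B genes were dim and shared probes. Cyp2b9 measured -6.47, -4.33, -5.58 and -6.10 in Control, -3.05, -3.40, -4.22 and -4.99 in IRI and -1.41, -3.18, -2.53 and -1.43 in IRI+Hemin. Control was above background on 1 of 4 arrays, and neighbouring groups overlapped by 1 array. Cyp2b9 rose by 1.71 ± 0.60 in IRI vs Control (adjusted p = 0.0247) and by 1.78 ± 0.60 in IRI+Hemin vs IRI (adjusted p = 0.0233). It fell by 1.88 ± 0.60 in IPC+IRI vs IRI (adjusted p = 0.0172), to -6.45, -4.74, -6.37 and -5.63, with 2 of 4 arrays above background. The 3 calls were lost without, in turn, Control replicate 1 or 4 or IRI replicate 1 or 2, IRI replicate 3 or 4 or IRI+Hemin replicate 1 or 4, and IRI replicate 1 or IPC+IRI replicate 1 or 3. Its brighter probe is annotated to both Cyp2b10 and Cyp2b9, and its other probe was above background on no Control or IRI array. None of the 3 calls was made after normexp correction, and that in IRI+Hemin vs IRI was also lost with its brightest probe alone.

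Cyp2b10, the best known CAR target, was above background on 2 of 4 IRI arrays and on all 4 IRI+Hemin arrays, and on no Control, IPC+IRI or Hemin array. It measured -4.09, -4.37, -5.92 and -4.82 in IRI and -2.28, -4.11, -3.37 and -2.64 in IRI+Hemin. The groups overlapped by 1 array, and Cyp2b10 rose by 1.70 ± 0.50 (adjusted p = 0.0101) in a call that held without any 1 array. After normexp correction the value was -0.06 (adjusted p = 0.841). Nr1i3, which encodes CAR, was above background on no Control or IRI array and on all 4 arrays of each Hemin group. It rose at least 7.17-fold in IRI+Hemin vs IRI (log2 fold change 3.16 ± 0.42, adjusted p = 2.23e-05) and at least 3.40-fold in Hemin vs Control (1.85 ± 0.42, adjusted p = 0.00277). In both, Nr1i3 passed the filter through the Hemin group alone and could hardly be called lower.

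Cyp2b13 rests on 2 probes that did not move together. The probe annotated to Cyp2b13 alone was above background on all 4 Control arrays, no IRI array, 2 IRI+Hemin and Hemin arrays each and 3 IPC+IRI arrays. It differed by -1.79 in IRI vs Control, -1.66 in IPC+IRI vs Control, 0.12 in IPC+IRI vs IRI, 0.03 in IRI+Hemin vs IRI and -1.54 in Hemin vs Control. The probe annotated to Cyp2b10, Cyp2b13, Cyp2b23 and Cyp2b9 was above background on no Control array, 3 IRI arrays, 4 IRI+Hemin arrays and 1 Hemin array, and on no IPC+IRI array. It differed by 1.85, -0.13, -1.99, 1.76 and 0.17 in the same comparisons. The mean of both probes measured -4.23, -4.30, -4.80 and -4.86 in IRI and -2.55, -4.23, -3.67 and -2.55 in IRI+Hemin, a difference of 1.30 ± 0.34 (adjusted p = 0.0052) that the shared probe carried. In Hemin it measured -5.46, -5.63, -4.52 and -5.28 beside -3.52, -3.93, -4.35 and -4.50 in Control, a difference of -1.15 ± 0.34 (adjusted p = 0.0147) that the specific probe carried and that was lost without Control replicate 1. The mean differed by -1.35 ± 0.34 in IPC+IRI vs Control (adjusted p = 0.00271), carried by the specific probe, and by -0.88 ± 0.34 in IPC+IRI vs IRI (adjusted p = 0.0438), carried by the shared one and kept only without IRI replicate 4 or IPC+IRI replicate 4. In IRI vs Control it differed by -0.47 ± 0.34 (adjusted p = 0.261). After normexp correction none of the Cyp2b13 calls was made, and the IRI+Hemin vs IRI value turned to -0.21. With probes averaged on the log2 scale the Hemin vs Control call and the one in IRI+Hemin vs IRI were lost, and unscaled the 3 falls.

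Cyp2b19, an arachidonic acid epoxygenase of keratinocytes, fell in 4 comparisons. It measured -4.64, -3.14, -3.16 and -3.13 in Control, -4.16, -3.76, -4.04 and -4.20 in IRI and -5.65, -5.48, -5.18 and -5.60 in IPC+IRI. IPC+IRI lay below both other groups on every array. Cyp2b19 fell by 1.96 ± 0.33 in IPC+IRI vs Control (adjusted p = 9.36e-05), by 1.44 ± 0.33 in IPC+IRI vs IRI (adjusted p = 0.00217) and by 1.13 ± 0.33 in Hemin vs Control (adjusted p = 0.0139), each without regard to any 1 array. Its fall of 0.98 ± 0.33 in IRI+Hemin vs IRI (adjusted p = 0.0234) was lost without IRI replicate 2 or IRI+Hemin replicate 1 or 3. After normexp correction the calls against Control were lost, and unscaled those in Hemin vs Control and IRI+Hemin vs IRI.

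CYP2C enzymes epoxidize or hydroxylate arachidonic acid and other fatty acids, and their genes held falls and no rise in the comparisons with Control. Of 7 tested in IRI vs Control 6 fell (median -0.87), of 8 in IPC+IRI vs Control 5 fell (median -0.90), and of 8 in Hemin vs Control 6 fell (median -0.80), beside 33.9%, 32.8% and 17.6% of all genes. Cyp2c65 and Cyp2c66 passed the filter through Control alone, so they could only fall against it, and the counts are no support for a change of the group. In IPC+IRI vs IRI none of 6 was called (median 0.13), while 26.3% of all genes rose and 17.8% fell. In IRI+Hemin vs IRI 1 of 5 fell (median -0.10), beside 18.1% of all genes. After normexp correction none fell in IRI vs Control, 2 fell in IPC+IRI vs Control and 3 in Hemin vs Control, and unscaled 3, 3 and 1 fell, with 1 rise in Hemin vs Control.

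Cyp2c66 (probe chr19:39261183-39261242, plus strand) measured -3.62, -3.62, -4.04 and -4.45 in Control and -6.79, -6.71, -5.85 and -6.32 in IRI. It was above background on all Control arrays and on no IRI array. Cyp2c66 fell at least 4.71-fold (log2 fold change -2.48 ± 0.27, adjusted p = 1.34e-06), from a mean of -3.93 to one of -6.42. The IPC+IRI arrays measured -5.04, -5.48, -5.62 and -5.11 and the Hemin arrays -5.08, -4.78, -5.40 and -5.20, with 1 of 4 arrays above background in each of these groups. The fitted falls against Control, which rest on values mostly at background, were 1.38 ± 0.28 in IPC+IRI (adjusted p = 0.000403) and 1.18 ± 0.28 in Hemin (adjusted p = 0.00328). After normexp correction the IRI vs Control value of Cyp2c66 was -0.0032 (adjusted p = 0.997), and its other falls were not called either.

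Cyp2c29 was above background on all 20 arrays. It measured -1.03, -1.89, -1.56 and -1.07 in Control, -2.66, -2.62, -2.57 and -2.32 in IRI, -2.82, -2.61, -2.68 and -2.86 in IPC+IRI and -2.34, -1.94, -2.13 and -2.01 in Hemin. Every array of the other 3 groups lay below every Control array. Cyp2c29 fell by 1.15 ± 0.18 in IRI vs Control (adjusted p = 4.06e-05), by 1.35 ± 0.18 in IPC+IRI vs Control (adjusted p = 7.79e-06) and by 0.71 ± 0.18 in Hemin vs Control (adjusted p = 0.00497). After normexp correction the fall in IRI vs Control was 0.43 and not called (adjusted p = 0.0523), while that in IPC+IRI vs Control held under every alternative. Unscaled, the Cyp2c29 fall in Hemin vs Control was 0.15 and not called (adjusted p = 0.689).

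Of the other CYP2C genes, Cyp2c65 measured -3.65, -3.95, -4.17 and -3.75 in Control and was above background on no IPC+IRI, Hemin or IRI+Hemin array. It fell at least 3.90-fold in IPC+IRI vs Control (log2 fold change -1.96 ± 0.29, adjusted p = 2.5e-05) and at least 3.54-fold in Hemin vs Control (-1.82 ± 0.29, adjusted p = 0.000257), with neither call made after normexp correction. Its fall of 0.87 ± 0.29 in IRI vs Control (adjusted p = 0.0186) was lost without Control replicate 1 or IRI replicate 4, unscaled and with quantile normalization. After normexp correction that Cyp2c65 value turned to 0.09 (adjusted p = 0.878). Cyp2c70, the muricholic acid synthase of mice, fell against Control by 0.62 in IRI, 1.01 in IPC+IRI and 0.82 in Hemin, and by 0.58 in IRI+Hemin vs IRI, with no call among unscaled values. Cyp2c37 fell by 0.94, 0.80 and 0.81 in the comparisons of IRI, IPC+IRI and Hemin with Control, with no call after normexp correction. Cyp2c40 fell by 0.68 in IRI vs Control and by 0.79 in Hemin vs Control. Both Cyp2c40 calls were lost without Control replicate 1, 3 or 4, the first also without IRI replicate 1 or 3 and the second without Hemin replicate 1, and both were lost unscaled.

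Cyp2c44, an arachidonic acid epoxygenase of the kidney now named Cyp2c23, was the one CYP2C gene with means above 0 and was not called. It measured 1.83, 1.88, 1.26 and 1.91 in Control and 1.25, 1.52, 1.65 and 1.02 in IRI. The groups overlapped, at a difference of -0.36 ± 0.20 (adjusted p = 0.154). In the other comparisons it differed by between -0.22 and 0.27. Cyp2c55 was tested in part of the comparisons and not called. Liver, the main site of CYP2C enzymes, gave 5 of 7 markers above background in every group, with a summed level of 1.23 to 1.47 in Control, 0.84 to 1.15 in IRI, 0.51 to 2.18 in IRI+Hemin, 0.86 to 1.14 in IPC+IRI and 1.00 to 1.18 in Hemin. Its marker Cps1 was above background on no array, and the part of liver RNA in these values was not tested.

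CYP2D genes, relatives of the human drug-metabolizing CYP2D6, lost expression in IPC+IRI and were partly higher with Hemin before IRI. All 6 tested fell in IPC+IRI vs Control (median -0.59), 3 of 6 fell in IRI vs Control (median -0.48), and 4 of 6 rose in IRI+Hemin vs IRI (median 0.54), beside 32.8% and 33.9% of all genes lower and 26.3% higher. Hemin alone gave 2 falls of 6 (median -0.25), beside 17.6% of all genes, and IPC+IRI vs IRI gave 1 rise and 2 falls of 6 (median -0.08), beside 26.3% and 17.8%. Unscaled, none of 6 was called in IPC+IRI vs Control (median -0.16), and the medians turned to 0.31 in Hemin vs Control and 0.24 in IPC+IRI vs IRI.

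Cyp2d26 (probe chr15:82620575-82620634, minus strand) measured 5.51, 5.75, 5.71 and 5.86 in Control, 4.59, 4.80, 4.78 and 4.04 in IRI, 5.42, 5.95, 5.76 and 4.94 in IRI+Hemin and 5.30, 5.19, 4.89 and 5.14 in IPC+IRI. IRI lay below all 3 other groups on every array. Cyp2d26 fell by 1.16 ± 0.22 in IRI vs Control (adjusted p = 0.000363) and rose by 0.97 ± 0.22 in IRI+Hemin vs IRI (adjusted p = 0.00215), under every alternative and without any 1 array. It fell by 0.58 ± 0.23 in IPC+IRI vs Control (adjusted p = 0.0358), which was kept only without Control replicate 1 or IPC+IRI replicate 1 and lost unscaled and after normexp correction. It rose by 0.58 ± 0.22 in IPC+IRI vs IRI (adjusted p = 0.0447), which was kept only without IRI replicate 2 or 3 or IPC+IRI replicate 3 and lost with quantile normalization and the replicate block.

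Cyp2d10 had a similar course, with 2.73, 2.27, 2.62 and 2.91 in Control, 0.94, 1.65, 1.71 and 1.12 in IRI and 1.88, 2.45, 2.26 and 1.73 in IRI+Hemin. It fell by 1.28 ± 0.22 in IRI vs Control (adjusted p = 0.000126) and by 1.06 ± 0.22 in IPC+IRI vs Control (adjusted p = 0.000601). Its rise of 0.73 ± 0.22 in IRI+Hemin vs IRI (adjusted p = 0.0129) was lost without IRI replicate 1. In the deposited log2 values, where part of the spots are blank, none of the 3 Cyp2d10 calls was made, at -1.47 (adjusted p = 0.0848), -1.11 (adjusted p = 0.195) and 0.93 (adjusted p = 0.297).

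Cyp2d34 was called lower with Hemin alone and after IRI. It measured 0.50, 0.66, 0.57 and 0.09 in Control, -1.32, -1.08, -1.51 and -1.09 in Hemin, -0.42, 0.11, -0.20 and -0.61 in IRI and 0.03, 0.58, 0.24 and 0.47 in IRI+Hemin. Hemin lay below every array of the other groups. Cyp2d34 fell by 1.71 ± 0.17 in Hemin vs Control (adjusted p = 9.57e-06), fell by 0.74 ± 0.17 in IRI vs Control (adjusted p = 0.00134) and rose by 0.61 ± 0.17 in IRI+Hemin vs IRI (adjusted p = 0.0067). These calls held under every alternative and without any 1 array.

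Cyp2d9, a testosterone 16α-hydroxylase, and Cyp2d12 were lower on every IPC+IRI array than on any Control, IRI or IRI+Hemin array, while Hemin arrays reached into the IPC+IRI range. Cyp2d9 measured 4.25, 3.86, 4.10 and 4.32 in IPC+IRI beside 4.91, 4.92, 4.94 and 4.92 in IRI and 4.79, 4.55, 4.70 and 4.83 in Control. Cyp2d9 fell by 0.79 ± 0.13 in IPC+IRI vs IRI (adjusted p = 0.000122) and by 0.59 ± 0.13 in IPC+IRI vs Control (adjusted p = 0.000849). Cyp2d12 fell by 0.77 and 0.68 in the same comparisons. Unscaled, none of these 4 calls was made. The fall of Cyp2d9 by 0.41 ± 0.13 in Hemin vs Control (adjusted p = 0.0196) was lost without Control replicate 4 or Hemin replicate 1 or 3, and unscaled the value was 0.16. Cyp2d22 fell by 0.51 ± 0.15 in IPC+IRI vs Control (adjusted p = 0.00825), where its brightest probe differed by -0.97 and its other probes by 1.14 and 0.52. With probes averaged on the log2 scale the Cyp2d22 value turned to 0.23. Its rise of 0.46 ± 0.15 in IRI+Hemin vs IRI (adjusted p = 0.0193) was lost without IRI replicate 2 or 3 or IRI+Hemin replicate 4 and with its brightest probe alone.

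The remaining CYP2 genes, CYP2E to CYP2W, did not move as a group. Of 11 tested, 2 rose and 3 fell in IRI vs Control (median 0.19), 2 and 1 in IPC+IRI vs Control (median -0.14), 1 and 2 in IPC+IRI vs IRI (median -0.01), 0 and 3 in IRI+Hemin vs IRI (median -0.22), and 2 and 2 in Hemin vs Control (median -0.02), all to be read beside the shares of all genes given above.

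Among the CYP2J genes, which epoxidize arachidonic acid, Cyp2j9 rose in each comparison with Control. It measured 1.19, 0.86, 0.91 and 0.96 in Control, 1.72, 1.72, 1.76 and 1.56 in IRI, 1.74, 1.71, 1.46 and 1.83 in IPC+IRI and 1.79, 1.85, 1.85 and 1.60 in Hemin. All arrays of these 3 groups lay above Control. Cyp2j9 rose by 0.71 ± 0.11 in IRI vs Control (adjusted p = 2.88e-05), by 0.70 ± 0.11 in IPC+IRI vs Control (adjusted p = 2.98e-05) and by 0.79 ± 0.11 in Hemin vs Control (adjusted p = 8.36e-05), under every alternative and without any 1 array. Cyp2j13 fell by 0.64 ± 0.18 in IRI+Hemin vs IRI (adjusted p = 0.00885), from 3.62, 4.05, 3.80 and 3.34 to 3.08, 3.04, 2.88 and 3.26. Its probes disagreed in level and size of change, and the call was lost with its brightest probe alone, unscaled and after normexp correction. Cyp2j5, Cyp2j6, Cyp2j11 and Cyp2f2 were not called in any comparison. Cyp2j5, a kidney epoxygenase, stayed between 5.55 and 6.26 on all 20 arrays.

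Cyp2s1 and Cyp2w1, P450s with few assigned substrates, went opposite ways. Cyp2s1 measured 1.25, 1.28, 0.91 and 0.79 in Control, 2.00, 2.04, 2.08 and 1.57 in IRI and 2.48, 2.09, 2.30 and 2.95 in IPC+IRI. The 3 groups did not overlap. Cyp2s1 rose by 0.86 ± 0.22 in IRI vs Control (adjusted p = 0.0033), or 0.40 and not called after normexp correction (adjusted p = 0.107), and by 1.39 ± 0.22 in IPC+IRI vs Control (adjusted p = 4.74e-05). Its rise of 0.61 ± 0.22 in Hemin vs Control (adjusted p = 0.0375) was kept only without Control replicate 1 or 2 or Hemin replicate 3 and lost after normexp correction and with quantile normalization. That call was also lost with the percentile of detected probes, with log2 averaging of probes and with the replicate block. Cyp2w1 measured -2.76, -2.89, -2.93 and -2.94 in Control, -3.92, -4.07, -3.75 and -4.17 in IRI, -5.55, -4.46, -5.71 and -4.93 in IPC+IRI, -4.86, -4.50, -4.59 and -5.72 in IRI+Hemin and -4.59, -4.12, -3.97 and -3.77 in Hemin. Control lay above every other array. All Control, IRI and Hemin arrays were above background, with 3 of 4 in IRI+Hemin and 1 of 4 in IPC+IRI, so the IPC+IRI values lie mostly at background. Cyp2w1 fell in all 5 comparisons, by between 0.94 ± 0.27 in IRI+Hemin vs IRI (adjusted p = 0.00813) and 2.28 ± 0.27 in IPC+IRI vs Control (adjusted p = 2.45e-06), and only that last fall held under every alternative, the others being lost unscaled.

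Cyp2e1, the ethanol-inducible P450, measured 5.47, 5.50, 5.53 and 5.20 in Control, 5.91, 6.02, 5.99 and 5.52 in IRI, 4.67, 5.07, 5.02 and 4.79 in IPC+IRI, 5.41, 3.77, 5.27 and 5.20 in IRI+Hemin and 4.67, 4.56, 5.0 and 4.37 in Hemin. The IPC+IRI and Hemin arrays lay below all Control and IRI arrays. Cyp2e1 fell by 0.97 ± 0.26 in IPC+IRI vs IRI (adjusted p = 0.00597). It fell by 0.95 ± 0.26 in IRI+Hemin vs IRI (adjusted p = 0.00691), or by 0.57 without IRI+Hemin replicate 2. Its fall of 0.77 ± 0.26 in Hemin vs Control (adjusted p = 0.0275) was kept only without Control replicate 2 or 4 or Hemin replicate 3. Unscaled, none of the 3 Cyp2e1 calls was made.

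Cyp2u1, a fatty acid hydroxylase, measured -3.06, -2.60, -2.76 and -2.83 in Control, -3.89, -3.51, -3.99 and -3.61 in IRI and -2.30, -3.60, -2.54 and -3.19 in IPC+IRI. IRI lay below Control on every array, and 1 IPC+IRI array reached into the IRI range. Cyp2u1 fell by 0.94 ± 0.26 in IRI vs Control (adjusted p = 0.00545) and rose by 0.84 ± 0.26 in IPC+IRI vs IRI (adjusted p = 0.0129), which was lost without IPC+IRI replicate 1. After normexp correction the first Cyp2u1 fall was not called (adjusted p = 0.999) and the second value was -0.20 (adjusted p = 0.49).

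In the CYP3A subfamily, the main drug-metabolizing P450s of liver and gut, 3 of 5 genes were tested in any comparison. Cyp3a13 measured -4.28, -4.77, -4.36 and -5.29 in Control, -3.35, -1.58, -3.06 and -2.63 in IRI and -3.41, -3.86, -3.47 and -2.97 in IPC+IRI. Both IRI groups lay above Control, where 2 of 4 arrays were above background, on every array. Cyp3a13 rose by 2.02 ± 0.32 in IRI vs Control (adjusted p = 4.85e-05), under every alternative that tested it. It rose by 1.25 ± 0.32 in IPC+IRI vs Control (adjusted p = 0.00289), which was lost after normexp correction. In both comparisons it passed the filter through the injured group alone and could hardly be called lower. In IRI+Hemin it measured -3.60, -3.17, -3.21 and -3.96. The fall of 0.83 ± 0.32 in IRI+Hemin vs IRI (adjusted p = 0.0402) was 0.47 without IRI replicate 2, the highest array, and was also lost without IRI replicate 4 or IRI+Hemin replicate 1 or 4, unscaled and with the replicate block. Cyp3a11, a target of the nuclear receptor PXR, measured -6.49, -5.59, -4.92 and -5.52 in IRI, where no array was above background, and -4.71, -3.90, -5.06 and -3.38 in IRI+Hemin. It rose at least 2.58-fold (log2 fold change 1.37 ± 0.34, adjusted p = 0.00339), with 1 overlapping array, and after normexp correction the value was -0.43 (adjusted p = 0.14). Cyp3a16 fell at least 3.49-fold in IPC+IRI vs Control (fitted difference -2.0 ± 0.46 on the log2 scale, adjusted p = 0.00138), and not after normexp correction, with Control at -6.73, -4.03, -4.75 and -4.54 and no IPC+IRI array above background.

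CYP4A enzymes hydroxylate the end carbon of fatty acids, among them arachidonic acid, and are induced through PPARα. None of the 3 tested genes was called in IRI vs Control or in Hemin vs Control. Of all genes, 17.1% rose and 33.9% fell in the first, and 18.5% and 17.6% in the second. Cyp4a14 (probe chr4:115158914-115158973, minus strand) measured 3.94, 3.39, 1.91 and 1.73 in Control, 3.51, 1.48, 2.57 and 2.26 in IRI, 6.19, 4.64, 5.39 and 4.71 in IRI+Hemin, 4.57, 1.58, 2.81 and 5.77 in IPC+IRI and 4.32, 3.75, 3.89 and 5.09 in Hemin. All IRI+Hemin arrays lay above all IRI and Control arrays, and the IPC+IRI arrays spread over the range of the others. Cyp4a14 rose by 2.78 ± 0.72, or 6.86-fold, in IRI+Hemin vs IRI (adjusted p = 0.00483), under every alternative and without any 1 array. The difference in Hemin vs Control was 1.52 ± 0.72 (adjusted p = 0.109). Cyp4a10 differed by 0.65 ± 0.27 in IRI+Hemin vs IRI (adjusted p = 0.0572) and Cyp4a31 by 0.46 ± 0.27 (adjusted p = 0.187). Cyp4a31 measured 1.26, 0.55, 1.42 and 0.96 in Control and -0.57, -0.61, -0.22 and 0.72 in IPC+IRI. It fell by 1.21 ± 0.28 in IPC+IRI vs Control (adjusted p = 0.00118), with 1 overlapping array and no call among unscaled values, and by 0.69 ± 0.27 in IPC+IRI vs IRI (adjusted p = 0.0497), which was kept only without IRI replicate 2 or IPC+IRI replicate 4 and lost unscaled and after normexp correction.

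The CYP4B, CYP4F, CYP4V and CYP4X genes did not move as a group. Of 9 tested, 1 rose and 1 fell in IRI vs Control (beside 17.1% and 33.9% of all genes), 1 and 3 in IPC+IRI vs Control (23.2% and 32.8%), 2 and 3 in IPC+IRI vs IRI (26.3% and 17.8%), and 2 and 2 in IRI+Hemin vs IRI (26.3% and 18.1%). Of 8 tested in Hemin vs Control, 1 rose and 3 fell (18.5% and 17.6%). Cyp4x1, an orphan P450, was called lower in 4 comparisons. It measured -3.25, -2.99, -3.26 and -3.18 in Control, -3.97, -3.77, -3.98 and -4.28 in IRI, -6.95, -5.69, -5.68 and -6.79 in IRI+Hemin, -5.52, -5.81, -6.94 and -5.69 in IPC+IRI and -4.79, -5.06, -5.20 and -3.53 in Hemin. It was above background on all Control and IRI arrays and on no IRI+Hemin or IPC+IRI array. Cyp4x1 fell at least 6.30-fold in IPC+IRI vs Control (log2 fold change -2.82 ± 0.36, adjusted p = 6.6e-06), from a mean of -3.17 to one of -5.99. It fell at least 3.54-fold in IPC+IRI vs IRI (-1.99 ± 0.36, adjusted p = 0.000339) and at least 4.19-fold in IRI+Hemin vs IRI (-2.28 ± 0.36, adjusted p = 0.000106), from an IRI mean of -4.00 to one of -6.28 in IRI+Hemin. In these 3 comparisons Cyp4x1 passed the filter through the higher group alone and could hardly be called higher. The 3 calls held under every alternative that tested it and without any 1 array. Cyp4x1 also fell by 1.48 ± 0.36 in Hemin vs Control (adjusted p = 0.00472), a call lost unscaled and after normexp correction, and differed by -0.83 ± 0.36 in IRI vs Control (adjusted p = 0.0634) although the groups did not overlap.

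Cyp4f39, which hydroxylates ultra-long-chain fatty acids in skin, measured -4.79, -3.08, -3.31 and -3.39 in Control and -5.19, -5.10, -5.73 and -6.85 in IRI, where no array was above background. It fell at least 3.49-fold (log2 fold change -2.07 ± 0.46, adjusted p = 0.0012), from a mean of -3.64 to one of -5.72, and after normexp correction the Cyp4f39 value was -0.08 (adjusted p = 0.911). Its fall of 1.36 ± 0.46 in IPC+IRI vs Control (adjusted p = 0.0186) was lost without Control replicate 2 or 3 or IPC+IRI replicate 2, after normexp correction and with quantile normalization. Cyp4f15 rose by 1.85 ± 0.64 in IRI vs Control (adjusted p = 0.0214), a call lost without Control replicate 4 or IRI replicate 1 and resting on Control values spread from -6.58 to -2.80, with 1 array above background. It was also lost after normexp correction and in the deposited log2 values. Cyp4b1, a lung and kidney P450, was above background on all arrays, and its fall of 0.41 ± 0.15 in Hemin vs Control (adjusted p = 0.0433) was lost whichever of the 8 arrays was left out, and unscaled the value was 0.16. Cyp4f14, a leukotriene hydroxylase, fell by 0.58 ± 0.16 in Hemin vs Control (adjusted p = 0.00862), and not unscaled or after normexp correction. Cyp4f13 fell by 0.36 ± 0.11 in IPC+IRI vs Control (adjusted p = 0.00928). Its fall of 0.29 ± 0.11 in IPC+IRI vs IRI (adjusted p = 0.0399) was lost without IRI replicate 3 or 4 or IPC+IRI replicate 2 or 3. Both Cyp4f13 values turned sign unscaled. Cyp4v3, a fatty acid hydroxylase, fell by 0.52 ± 0.17 in IPC+IRI vs IRI (adjusted p = 0.0224) and by 0.49 ± 0.17 in IRI+Hemin vs IRI (adjusted p = 0.0275). Both calls were lost without IRI replicate 1 or 4, the first also without IPC+IRI replicate 1 and the second without IRI+Hemin replicate 4, and both unscaled and in the deposited log2 values. Cyp20a1, an orphan P450 of a family of its own, fell by 0.61 ± 0.21 in IRI+Hemin vs IRI (adjusted p = 0.0235), and not without IRI replicate 2 or 3 or IRI+Hemin replicate 2 or 4, unscaled or after normexp correction.

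Cyp4f18, the leukotriene B4 hydroxylase of neutrophils, measured -2.63, -2.61, -2.74 and -2.50 in IRI, -2.25, -1.80, -2.29 and -1.63 in IRI+Hemin and -2.67, -2.0, -1.38 and -2.12 in IPC+IRI. It rose by 0.63 ± 0.21 in IRI+Hemin vs IRI (adjusted p = 0.0206), lost without IRI replicate 3 or IRI+Hemin replicate 2 or 4. It rose by 0.58 ± 0.21 in IPC+IRI vs IRI (adjusted p = 0.0317), kept only without IRI replicate 4 or IPC+IRI replicate 1 or 4 and lost with quantile normalization. The Cyp4f18 values were -0.04 and -0.01 after normexp correction. Of 8 leukocyte markers tested, 3 rose and 1 fell in IPC+IRI vs IRI, near the 26.3% and 17.8% of all genes, and none was called in IRI+Hemin vs IRI. Their summed level was 2.43 to 3.54 in IRI, 2.84 to 4.03 in IRI+Hemin and 3.47 to 5.28 in IPC+IRI, with Cd79a above background on no IPC+IRI array, and their part in the result was not tested. Cyp4f16 rose by 0.59 ± 0.16 in IPC+IRI vs IRI (adjusted p = 0.00649) and by 0.61 ± 0.16 in IRI+Hemin vs IRI (adjusted p = 0.00519), both without regard to any 1 array, and after normexp correction differed by -0.02 and -0.05. Its rise of 0.54 ± 0.16 in Hemin vs Control (adjusted p = 0.0155) was lost without Control replicate 1 and after normexp correction. Its rise of 0.39 ± 0.16 in IPC+IRI vs Control (adjusted p = 0.0489) was kept only without Control replicate 2 or IPC+IRI replicate 2 and lost after normexp correction and with the replicate block.

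Of the P450s of vitamin D, Cyp27b1, the 1α-hydroxylase of the proximal tubule, fell. It measured -0.52, -2.01, -1.23 and -2.10 in Control, -3.03, -2.79, -2.82 and -2.98 in IRI, -3.28, -4.18, -2.79 and -3.15 in IPC+IRI and -3.14, -2.49, -3.12 and -1.96 in Hemin. IRI and IPC+IRI lay below Control on every array, while 1 Hemin array reached into the Control range. Cyp27b1 fell by 1.44 ± 0.44 in IRI vs Control (adjusted p = 0.0117) and by 1.88 ± 0.45 in IPC+IRI vs Control (adjusted p = 0.00164), and after normexp correction the first fall was 0.46 (adjusted p = 0.3). Its fall of 1.21 ± 0.45 in Hemin vs Control (adjusted p = 0.041) was kept only without Control replicate 2 or 4 or Hemin replicate 4 and lost unscaled and in the deposited log2 values. Of the 10 proximal tubule markers, 3 fell in IRI vs Control (Slc5a12, Lrp2 and Cubn), 5 in IPC+IRI vs Control and 3 in Hemin vs Control, with no rise in any of these, beside 33.9%, 32.8% and 17.6% of all genes, and their part was not tested.

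Cyp24a1, which breaks down active vitamin D, measured 1.18, 1.82, 3.18 and 3.46 in Control, 3.96, 2.97, 4.26 and 4.03 in IRI and 1.35, 3.18, 2.03 and 2.71 in IPC+IRI. The difference of 1.39 ± 0.58 in IRI vs Control was not called (adjusted p = 0.053). Cyp24a1 fell by 1.49 ± 0.58 in IPC+IRI vs IRI (adjusted p = 0.0455), which was kept only without IRI replicate 2 or IPC+IRI replicate 2 and lost unscaled, after normexp correction and in the deposited log2 values. Cyp2r1, a vitamin D 25-hydroxylase, measured -3.77, -2.83, -3.52 and -3.38 in Control and -5.07, -3.99, -4.27 and -4.18 in IRI. It fell by 1.00 ± 0.35 (adjusted p = 0.0229), and not without Control replicate 2 or IRI replicate 1, unscaled or with quantile normalization. The Cyp2r1 value turned to 0.05 after normexp correction (adjusted p = 0.923). Cyp27a1, the sterol 27-hydroxylase, fell by 0.54 ± 0.17 in IPC+IRI vs Control (adjusted p = 0.0145) and rose by 0.53 ± 0.17 in IRI+Hemin vs IRI (adjusted p = 0.0193). The first call was lost without Control replicate 3 or IPC+IRI replicate 1, and the second without IRI replicate 2 or IRI+Hemin replicate 1 or 2. Unscaled, the Cyp27a1 fall was 0.10 and not called (adjusted p = 0.826), and the rise was not called when only the compared arrays were fitted.

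The retinoic acid hydroxylases differed from each other. Cyp26a1 measured -4.31, -3.08, -4.57 and -4.33 in Control, with 3 arrays above background, and -5.89, -5.20, -4.87 and -4.89 in IRI, with 1. In IRI vs Control it passed the filter through Control alone, and its difference of -1.14 ± 0.31 (adjusted p = 0.00512) rests on IRI values mostly at background. It fell at least 3.37-fold in IPC+IRI vs Control (log2 fold change -1.75 ± 0.31, adjusted p = 0.000135), with means of -4.07 in Control and -5.83 in IPC+IRI. The call in IRI vs Control was lost with quantile normalization. After normexp correction the Cyp26a1 values were 0.10 (adjusted p = 0.868) and -0.45 (adjusted p = 0.144). Cyp26b1 was above background on all arrays and was not called, with differences from -0.76 in Hemin vs Control to 0.97 in IRI+Hemin vs IRI.

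Cyp17a1, the steroid 17α-hydroxylase, was the steroid hormone P450 above background on all arrays. Cyp11a1 and Cyp11b2, which also act in steroid hormone synthesis, were above background on none of the 20. Cyp21a1, the steroid 21-hydroxylase, was tested where 1 group passed the filter and was not called. The probe of Cyp17a1 lies on the minus strand at chr19:46742594-46743207. Cyp17a1 measured 1.49, 0.74, 1.55 and 1.03 in Control, -0.24, 0.01, 0.16 and -0.25 in IRI, 0.52, 0.58, 0.04 and 0.29 in IRI+Hemin, -0.29, -1.18, -0.65 and -0.83 in IPC+IRI and -0.42, -0.16, -0.48 and -0.30 in Hemin. Control lay above every other array. Cyp17a1 fell by 1.28 ± 0.19 in IRI vs Control (adjusted p = 3.57e-05), by 1.94 ± 0.20 in IPC+IRI vs Control (adjusted p = 5.32e-07) and by 1.55 ± 0.20 in Hemin vs Control (adjusted p = 6.31e-05), under every alternative and without any 1 array. It also fell by 0.66 ± 0.19 in IPC+IRI vs IRI (adjusted p = 0.011), a call lost unscaled and after normexp correction. Of 7 adrenal markers tested, 4 fell and 1 rose in IRI vs Control and in IPC+IRI vs Control, and 3 fell in Hemin vs Control, where 33.9%, 32.8% and 17.6% of all genes fell. In IRI+Hemin vs IRI 2 of 7 rose and 2 fell, beside 26.3% and 18.1%. Their summed level was 0.73 to 0.98 in Control, 0.22 to 0.61 in IRI, 0.23 to 0.83 in IPC+IRI, 0.36 to 0.84 in Hemin and 0.94 to 2.01 in IRI+Hemin, with Th above background on no array outside Control. Their part in the Cyp17a1 result was not tested.

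The sterol and bile acid P450s held 1 gene that rose in 4 comparisons. Cyp39a1, the 24-hydroxycholesterol 7α-hydroxylase, measured -1.70, -1.32, -2.03 and -1.87 in Control, -2.68, -2.35, -2.33 and -1.14 in IRI, -0.55, -1.14, -0.64 and -0.95 in IRI+Hemin, -0.59, -0.90, -1.24 and -0.77 in IPC+IRI and -0.27, -0.19, -0.41 and -0.30 in Hemin. Hemin lay above every array of the other groups, and IRI replicate 4 above the other IRI arrays. Cyp39a1 rose by 1.44 ± 0.25 in Hemin vs Control (adjusted p = 0.000465) and by 0.86 ± 0.25 in IPC+IRI vs Control (adjusted p = 0.00771), under every alternative. It rose by 1.30 ± 0.25 in IRI+Hemin vs IRI (adjusted p = 0.000515) and by 1.25 ± 0.25 in IPC+IRI vs IRI (adjusted p = 0.000717), and after normexp correction by 0.41 (adjusted p = 0.0554) and 0.43 (adjusted p = 0.0531). Cyp46a1, the cholesterol 24-hydroxylase, fell by 0.75 ± 0.20 in IPC+IRI vs Control (adjusted p = 0.0044), and not unscaled or after normexp correction. Its fall of 0.51 ± 0.20 in IPC+IRI vs IRI (adjusted p = 0.048) was kept only without IPC+IRI replicate 3 or 4 and lost unscaled and with the replicate block. Cyp51, the lanosterol demethylase of cholesterol synthesis, fell by 0.48 ± 0.19 in IPC+IRI vs Control (adjusted p = 0.0403), and not without Control replicate 1 or 4 or IPC+IRI replicate 2 or 3, unscaled or after normexp correction. Cyp7b1, the oxysterol 7α-hydroxylase, was not called, with differences between 0.08 and 0.35.

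Whether the change with Hemin differed between kidneys with and without IRI was tested by an interaction term, the log2 fold change in IRI+Hemin vs IRI minus that in Hemin vs Control. Of 61 P450 genes tested, 8 were called higher and 1 lower (13.1% and 1.64%), beside 5.84% and 1.96% of all 19069 genes, with medians of 0.29 and 0.01. The 8 were Cyp2b13, Cyp2d34, Cyp17a1, Cyp2c66, Cyp2a22, Cyp4f18, Cyp2c29 and Cyp2d9, and the exception was Cyp2j9. Unscaled, 4 were called higher and none lower.

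Cyp2b13 (2.44 ± 0.48, adjusted p = 0.00484), Cyp2d34 (2.32 ± 0.24, adjusted p = 3.43e-05), Cyp17a1 (1.98 ± 0.28, adjusted p = 0.000333), Cyp2c66 (1.92 ± 0.39, adjusted p = 0.00563) and Cyp2c29 (1.07 ± 0.25, adjusted p = 0.0139) were called lower with Hemin alone. None of these 5 was called lower with Hemin before IRI, where Cyp2d34 rose. The Cyp2b13 term sets its specific probe, which carried the fall with Hemin alone, beside the shared probe, which carried the rise with Hemin before IRI, and it was lost after normexp correction, with its brightest probe and with log2 averaging of probes. Cyp2c66 was above background on none of the IRI arrays and 1 IRI+Hemin array, so that comparison was not tested and its term rests on values near background. For Cyp2j9 the term was -1.02 ± 0.15 (adjusted p = 0.000544): it rose with Hemin alone, and Hemin before IRI differed from IRI by -0.22 ± 0.11 (adjusted p = 0.0928). These 6 calls held without any 1 array. The terms of Cyp2a22 (1.69 ± 0.46, adjusted p = 0.0305), Cyp4f18 (1.10 ± 0.30, adjusted p = 0.0295) and Cyp2d9 (0.61 ± 0.18, adjusted p = 0.0479) were lost without 8, 7 and 13 of the 16 arrays in turn. For Cyp2a22 these were Control replicates 1 and 2, IRI replicates 1 and 2, IRI+Hemin replicate 4 and Hemin replicates 1, 2 and 3. For Cyp4f18 they were Control replicates 1 and 2, IRI replicate 3, IRI+Hemin replicates 2 and 4 and Hemin replicates 1 and 3, and Cyp2d9 was kept only without Control replicate 2, IRI+Hemin replicate 3 or Hemin replicate 4. Normexp correction also ended the calls of Cyp2c29, Cyp2j9, Cyp4f18 and Cyp2d9 and turned that of Cyp2c66 to -0.04, and Cyp2c29, Cyp2j9, Cyp2a22, Cyp4f18 and Cyp2d9 were not called unscaled. The terms of Cyp2d34 and Cyp17a1 alone held under every alternative.

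**Figure D4:**
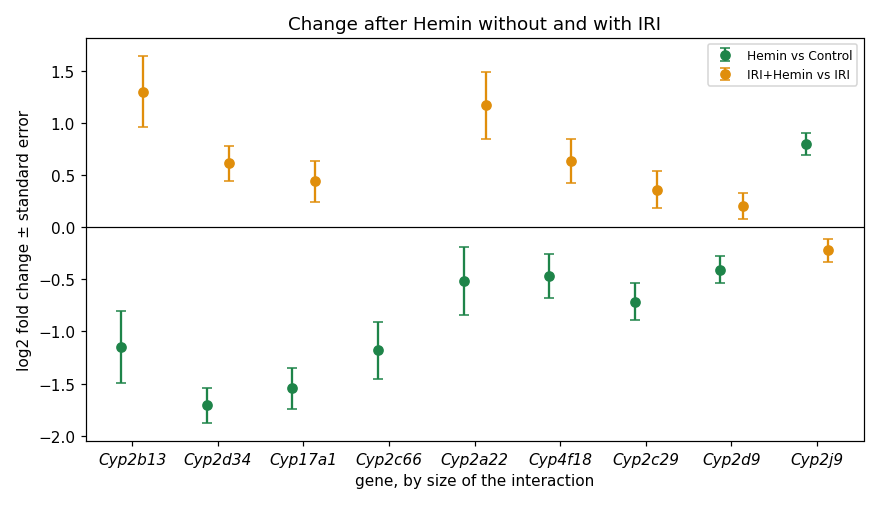
Log2 fold change ± SE with Hemin alone (Hemin vs Control) and with Hemin before IRI (IRI+Hemin vs IRI) for the 9 P450 genes called in the interaction term. Cyp2d34 moved from -1.71 to 0.61. Cyp2b13 is the mean of 2 probes, of which neither moved from -1.15 to 1.30, and Cyp2c66 has no second point because at most 1 array of either IRI group was above background.

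The genes that serve the P450s were followed beside them. Of 9 heme synthesis genes, 3 fell in IRI vs Control and 3 rose in IRI+Hemin vs IRI, shares near those of all genes (33.9% and 26.3%). Alas1, the first and limiting enzyme of heme synthesis, measured 4.02, 3.81, 4.22 and 3.40 in Control, 3.03, 3.37, 2.70 and 2.71 in IRI and 5.17, 4.87, 4.56 and 4.31 in IRI+Hemin. The 3 groups did not overlap. Alas1 fell by 0.91 ± 0.22 in IRI vs Control (adjusted p = 0.0021) and rose by 1.77 ± 0.22 in IRI+Hemin vs IRI (adjusted p = 1.13e-05), with an interaction term of 2.00 ± 0.31 (adjusted p = 0.000733). With Hemin alone Alas1 differed by -0.23 ± 0.22 (adjusted p = 0.433). Of 8 electron donors, 3 rose and 2 fell in IRI vs Control, where 17.1% and 33.9% of all genes did, among them Cyb5r3 (0.56 ± 0.13, adjusted p = 0.00165) and Por, the P450 oxidoreductase (0.42 ± 0.13, adjusted p = 0.013). Of 14 nuclear receptor and AhR genes, 3 rose and 3 fell there. The epoxide hydrolases Ephx1 and Ephx2 were not called in IRI vs Control, and Ephx1 fell by 0.73 ± 0.24 in IPC+IRI vs IRI (adjusted p = 0.0199) and by 0.89 ± 0.24 in IRI+Hemin vs IRI (adjusted p = 0.0062). Tbxas1, the thromboxane synthase and a P450 under another name, fell by 1.94 ± 0.24 in IRI vs Control (adjusted p = 4.23e-06), and Ptgis, the prostacyclin synthase, was not called (0.06 ± 0.28, adjusted p = 0.877).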

How the data were processed

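RNA of 20 whole-kidney samples was measured on single-color Agilent arrays. The authors deposited Feature Extraction scanner files (version 9.5.3.1 per the submitters' processing notes) and a matrix of log2 values. The processed signal in the deposited files is an intensity with background subtracted. The deposited log2 matrix held 33825 probes and 73 of the P450 genes, with 424 of their values blank, and all 1556 others lay within 0.001 of log2 of the processed signal. Spots marked as non-uniform or as population outliers were removed, replicate spots averaged, each array divided by its 75th percentile over non-control probes, and the probes of a gene averaged on the linear scale before log2. A gene was tested where at least 3 of 4 arrays of at least 1 group were well above background, with at most 1 missing value. Differences were fitted over all 20 arrays with limma 3.58.1 in R 4.3.3 (files read with the data.table package, version 1.17.8), with Benjamini-Hochberg adjustment over all genes tested. limma replaced SAM, which the study used and was not run here. The procedure was tested on simulated data. The number of arrays limits the precision.

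The P450 genes, the gene lists and the markers were chosen with earlier results of these data known. Named were, in each comparison, up to 5 called genes with the largest rise and fall among those above background in both groups, those called in the interaction (up to 5 each way), all tested AhR, CYP4A, retinoic acid and vitamin D P450s, Cyp51, Cyp2e1 and Cyp7b1, and examples of the partner lists. Cyp2b10, Cyp2c37, Cyp2c40, Cyp2c44, Cyp2c65, Cyp2c70, Cyp2d12, Cyp2d22, Cyp2j5, Cyp2j6, Cyp2j11, Cyp3a11, Cyp3a16, Cyp4b1, Cyp4f13, Cyp4f14, Cyp4f15, Cyp4v3, Cyp20a1, Cyp21a1, Cyp2c55, Cyp2f2, Cyp46a1, Nr1i3 and Arnt, and the values of partner genes outside IRI vs Control, were named after their values were seen. Alternatives were other background, scaling, probe and filter choices, the deposited matrix and fits to the compared arrays alone. Others were a 2-fold cutoff on the counts, a replicate block and each array left out in turn. No alternative is given for single partner or marker genes. Positions in mm9 come from the array annotation. The symbols of 77 of 78 genes matched RefSeq.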

Additional observations from a re-analysis of the deposited data

Results flagged for a closer look

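In 5 of the 190 groups of 4 arrays examined, 1 array of a P450 gene stood apart from the other arrays (Dixon's test at the 95% level, which chance meets in about 1 of 20 groups). Cyp26b1 measured -2.07 on IPC+IRI replicate 1 and 0.25 to 0.52 on the others. Cyp2b19 measured -4.64 on Control replicate 1 and -3.16 to -3.13 on the others. Cyp2e1 measured 5.20 on Control replicate 4, beside 5.47 to 5.53, and 3.77 on IRI+Hemin replicate 2, beside 5.20 to 5.41. Cyp2s1 measured 1.57 on IRI replicate 4, beside 2.00 to 2.08.

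The term for a difference between the change with Hemin in kidneys with and without IRI (limma, log2 scale) was called in 9 P450 genes. The term was 2.44 for Cyp2b13, 2.32 for Cyp2d34, 1.98 for Cyp17a1, 1.92 for Cyp2c66, 1.69 for Cyp2a22, 1.10 for Cyp4f18, 1.07 for Cyp2c29, 0.61 for Cyp2d9 and -1.02 for Cyp2j9. Those of Cyp2d34 and Cyp17a1 alone were called under every alternative. Cyp2c66 passed the filter through Control alone, with a term of -0.04 after normexp correction, and the term of Cyp2b13 joins 2 probes that did not move together.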

How the results depend on the processing

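Of the 131 P450 calls over the 6 comparisons, 86 held without any 1 array. The counts of P450 genes called higher and lower follow for each alternative that moved them by over 1.5 times; the causes were not tested. Normexp correction gave 3 and 4 in IRI vs Control, 13 lower in IPC+IRI vs Control, 1 and 9 in IPC+IRI vs IRI, 2 and 7 in Hemin vs Control, and 3 and 0 in the interaction. No normalization gave 12 lower in IPC+IRI vs Control, 3 lower in IPC+IRI vs IRI, 22 and 1 in IRI+Hemin vs IRI, 12 and 3 in Hemin vs Control, and 4 and 0 in the interaction. Quantile normalization gave 3 higher in IPC+IRI vs IRI and 2 lower in the interaction. The deposited matrix gave 5 higher in IRI vs Control, 16 lower in IPC+IRI vs Control, 6 higher and 5 lower in IPC+IRI vs IRI, 2 lower in IRI+Hemin vs IRI and 10 lower in Hemin vs Control. No filter on dim genes gave 8 higher in IPC+IRI vs IRI and 14 lower in IRI+Hemin vs IRI. Requiring all arrays above background, which tests fewer genes, gave 5 and 11 in IRI vs Control, 16 lower in IPC+IRI vs Control and 9 lower in IPC+IRI vs IRI. A 2-fold cutoff gave 4 and 11 in IRI vs Control, 2 and 16 in IPC+IRI vs Control, 1 and 5 in IPC+IRI vs IRI, 7 and 1 in IRI+Hemin vs IRI, and 1 and 9 in Hemin vs Control.

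Leaving out each array in turn gave 4 to 9 higher and 15 to 18 lower in IRI vs Control, 4 to 8 and 24 to 27 in IPC+IRI vs Control, 3 to 7 and 8 to 16 in IPC+IRI vs IRI, 11 to 16 and 6 to 9 in IRI+Hemin vs IRI, 3 to 5 and 12 to 19 in Hemin vs Control, and 5 to 9 and 1 to 2 in the interaction. The higher count was 5 without Control replicate 4 and 4 without IRI replicate 1 in IRI vs Control, 4 without Control replicate 4 or IPC+IRI replicate 4 in IPC+IRI vs Control, and 3 without IRI replicate 1 or IPC+IRI replicate 1 in IPC+IRI vs IRI. The lower count of IPC+IRI vs IRI was 8 without IPC+IRI replicate 1 and 9 without IRI replicate 1 or 4 or IPC+IRI replicate 3. In the interaction, 5 were higher without Control replicate 1, IRI+Hemin replicate 4 or Hemin replicate 1 or 3, and 2 lower without Control replicate 2.

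Called values whose sign turned under normexp correction were Cyp26a1 (0.096), Cyp2r1 (0.049) and Cyp2c65 (0.089) in IRI vs Control, Cyp2u1 (-0.20), Cyp4f16 (-0.023) and Cyp4f18 (-0.0062) in IPC+IRI vs IRI, Cyp2b13 (-0.21), Cyp2b10 (-0.065), Cyp3a11 (-0.43), Cyp4f16 (-0.049) and Cyp4f18 (-0.045) in IRI+Hemin vs IRI, and Cyp2c66 (-0.039) in the interaction. Cyp2d9 became 0.16 in Hemin vs Control without normalization, and Cyp2b13 1.85 in IRI vs Control (adjusted p = 0.0111) with its brightest probe. Over the named genes and all alternatives, 3994 values kept their direction and side of the threshold, 295 lost the call, 93 gained it and 11 turned.

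The replicate numbers were not taken to pair the arrays: the deviations of same-numbered arrays correlated at -0.318 to 0.149, and 4 of 20 correlated best with their own number. All 4 were in IRI vs Control, at 0.125, 0.05, 0.149 and 0.108, a hint from the data and not the design. A fit with the replicate number as a block called 8 and 17, 5 and 28, 4 and 12, 15 and 8, and 3 and 18 P450 genes in the same order and 8 and 1 in the interaction. Among the calls lost with the replicate block was that of Cyp2a5 in IRI vs Control (adjusted p = 0.0644). Slide as a random block could not be fitted, since each group has its own slide. Genes below background have only a bound, and differences between groups that both lay there were not detectable.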
